A study of Mus musculus with 2 samples.

Results

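The barcodes described here came from hepatocytes of undamaged mouse liver and stood at the perivenous end of the liver lobule by their own transcripts. They were 814 of the 59202 barcodes in the undamaged library, and of the 60788 barcodes in the series. The study compared hepatocytes of undamaged liver (0 h) with hepatocytes taken 48 h after partial hepatectomy (PHx), in which most of the liver is cut away. Both groups were mice on a normal diet, of strain C57BL/6 and 10 to 12 weeks old by the labels. The study's methods give C57BL/6J males and a somewhat younger age at PHx. Hepatocytes were freed by 2-step collagenase perfusion. The assay was droplet single-cell RNA sequencing (scRNA-Seq, 10X Genomics Single Cell 3′ chemistry, version 2), in which a unique molecular identifier (UMI) lets each captured molecule be counted once. Each group was 1 library from the cells of 1 mouse, so the differences below have no replicate check, and no p-value is given. Intervals are 95% intervals that cover counting error only.

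Blood enters the liver lobule at the portal tract and leaves at the central vein, and hepatocytes along this path divide the liver's metabolic work between them. Perivenous hepatocytes, next to the central vein, are known for glutamine synthesis, drug oxidation by cytochrome P450 enzymes, and bile acid synthesis. Wnt ligands from the endothelium of the central vein are known to maintain this programme through β-catenin and its DNA-binding partners of the TCF/LEF family. Periportal hepatocytes are known for urea synthesis, gluconeogenesis and much of amino acid breakdown.

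Members were found in 3 steps. Barcodes with more than 30% of their UMIs on mitochondrial genes were taken (3870 barcodes), and 3243 of them held at least 5 UMIs of 15 zonation genes. The zone share of a barcode was the percentage of those UMIs that fell on 7 perivenous genes (Glul, Cyp2e1, Cyp1a2, Oat, Slc1a2, Lect2 and Rhbg) and not on 8 periportal ones (Cyp2f2, Sds, Hal, Hsd17b13, Pck1, Ctsc, Ass1 and Asl). Members had a zone share at or above the 75th percentile, 79.2%. The 833 barcodes at or below the 25th percentile, 22.2%, formed the periportal quartile. The limit fell in a continuous range, because 4 members lay exactly on it, 3 barcodes at the next value above it (79.3%) and 5 at the next value below it (78.9%). A zone share of 100% was held by 137 members, and a share of 0 by 199 barcodes of the periportal quartile.

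**Figure D1:**
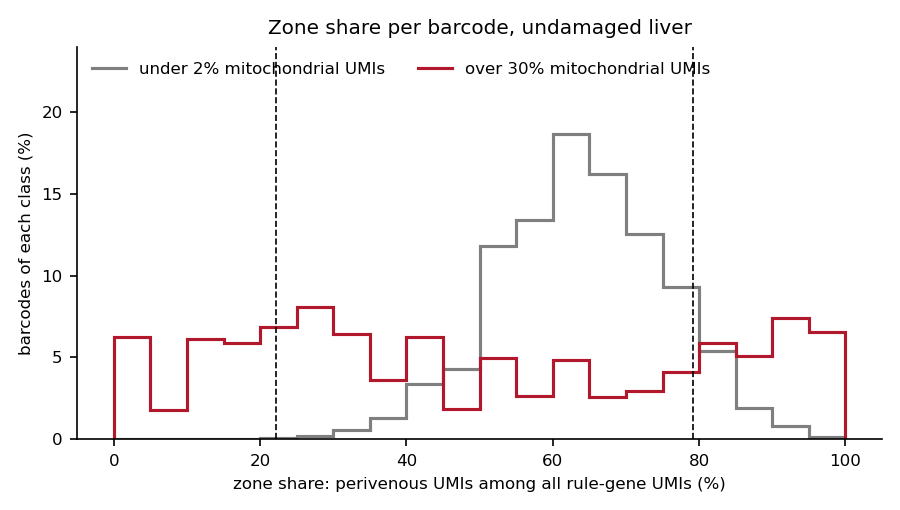
Zone share of barcodes in the undamaged library, as the percentage of barcodes in each 5-point bin, for barcodes with over 30% (red) and under 2% (grey) mitochondrial UMIs; dashed lines mark the limits at 22.2% and 79.2%. The red line runs over the whole axis, while the grey line is gathered around its median of 64.0%.

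The high mitochondrial share of these barcodes is a limit, since the study removed cells with many mitochondrial transcripts at a threshold it did not state. In the members the mitochondrial share had a median of 46.4%, against 48.1% in the periportal quartile. Members had a median of 1222.5 non-mitochondrial UMIs and 591 genes, against 1317 UMIs and 543 genes. Most barcodes of the library, 88.8%, had under 2% mitochondrial UMIs, and these differed little from each other in zone share. Their quartiles were 56.3% and 71.4%, far closer together than in the barcodes used here. The same rule was also applied to those 52580 barcodes, as a description. Whether a barcode over the mitochondrial limit was an intact cell was not tested. Malat1, a nuclear RNA, was at 3241 CPM (UMIs scaled to a non-mitochondrial total of 1000000) in the members, 5098 in the periportal quartile and 2220.0 in the barcodes under 2%, and its part in the results was not tested. The 2 libraries had 148 barcode sequences in common, of which 2 were members.

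Markers of other cell types were near 0 in the members. The 12 endothelial markers summed to 40 UMIs in the members and 27 in the periportal quartile, and the 10 macrophage markers to 44 and 54. Wnt2, Wnt9b and Rspo3, the signals that central-vein endothelium is known to send, had no UMI in the members. The 9 stellate and stromal markers summed to 19 and 36 UMIs, the T and NK cell markers to 1 and 0, the B cell markers to 3 and 0, and the neutrophil markers to 0 in both. The 5 erythroid markers summed to 71 and 58 UMIs. Of the cholangiocyte markers, Krt19, Krt7, Epcam and Cldn7 were at 0 in both quartiles, and the list as a whole summed to 8 UMIs in the members and 63 in the periportal quartile. Against these numbers the members held 1090488 non-mitochondrial UMIs and the periportal quartile 1382187. The 10 general hepatocyte genes summed to 80232 CPM in the members, 130365 in the periportal quartile and 90384 in barcodes under 2% mitochondrial UMIs. Their abundance thus did not set the members apart from those barcodes.

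The genes of the rule are given first, as a description, since they chose the barcodes. Levels are CPM, summed over the barcodes of a quartile. Glul, which makes glutamine from glutamate and ammonia, was at 1539.7 CPM in the members and 49.2 in the periportal quartile. Cyp2e1, an ethanol- and drug-oxidising P450, was at 8286 and 619 CPM, and Cyp1a2, which oxidises caffeine and aromatic amines, at 2091 and 163. Oat, the ornithine aminotransferase that feeds glutamate to Glul, was at 954 and 83.9 CPM. Slc1a2, a glutamate importer, was at 683 CPM against 7.96, and Rhbg, an ammonia transporter, at 269 against 4.34. The glutamate and ammonia importers thus had the largest gaps among the rule genes. Of the periportal genes, Cyp2f2 was at 379.6 CPM in the members and 3152 in the periportal quartile, and Hsd17b13, a lipid droplet protein, at 31.2 and 536.

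Each rule gene was also compared in barcodes chosen by the other 14 genes alone, a choice its own UMIs did not touch. All 5 genes given as markers of the cell type stayed far higher on the perivenous side. The log2 ratio of the upper over the lower quartile was then 4.38 (4.09 to 4.69) for Glul, 2.84 for Cyp2e1, 2.94 for Cyp1a2, 2.58 for Oat and 5.70 (5.03 to 6.46) for Slc1a2. Lect2, a secreted hepatokine, reached 3.59 and Rhbg 5.08. Of the periportal genes, Hsd17b13 was at -3.37, Sds, which breaks down serine, at -3.09, and Cyp2f2 at -2.25. Ass1 and Asl, consecutive enzymes of the urea cycle, were an exception. Their ratios were -0.13 (-0.26 to 0.004) and -0.14 (-0.33 to 0.04), with intervals that reached 0. By CPM these 2 transcripts thus had no clear direction. The median log2 ratio of genes outside the rule, given below, was 0.26 by CPM and not 0. Other scalings of the 2 ratios were not run. The perivenous label was therefore borne out by its own markers, while these 2 urea cycle genes do not decide by CPM alone.

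Promoters of members are shown because the TCF/LEF partners of β-catenin are known to bind DNA of a short fixed type. The letters searched were CTTTGAT and CTTTGAA (TCF/LEF), CAAAGTCC (the type bound by HNF4A) and GTTAAT (the core of the HNF1 site), each on both strands. Sequences are from RefSeq (GRCm38.p6), run 5′ to 3′ in the direction of the gene from 250 bases before the annotated start to 50 bases after it, and have matches in capitals. These are 3 perivenous rule genes with a TCF/LEF match and Cyp2a5, the gene outside the rule with the largest ratio.
Slc1a2 (chr2:102706188-102706487, plus strand): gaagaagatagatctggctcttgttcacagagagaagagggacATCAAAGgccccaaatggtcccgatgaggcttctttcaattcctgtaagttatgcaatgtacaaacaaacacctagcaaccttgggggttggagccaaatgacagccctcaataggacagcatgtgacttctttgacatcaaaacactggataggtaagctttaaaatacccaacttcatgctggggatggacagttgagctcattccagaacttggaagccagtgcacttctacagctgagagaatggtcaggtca
Lect2 (chr13:56548489-56548788, minus strand): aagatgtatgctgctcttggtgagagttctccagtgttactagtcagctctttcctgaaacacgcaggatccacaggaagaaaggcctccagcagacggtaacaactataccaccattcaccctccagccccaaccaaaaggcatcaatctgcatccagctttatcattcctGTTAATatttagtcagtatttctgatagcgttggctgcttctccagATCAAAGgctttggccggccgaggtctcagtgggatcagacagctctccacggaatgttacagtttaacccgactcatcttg
Cyp2e1 (chr7:140763569-140763868, plus strand): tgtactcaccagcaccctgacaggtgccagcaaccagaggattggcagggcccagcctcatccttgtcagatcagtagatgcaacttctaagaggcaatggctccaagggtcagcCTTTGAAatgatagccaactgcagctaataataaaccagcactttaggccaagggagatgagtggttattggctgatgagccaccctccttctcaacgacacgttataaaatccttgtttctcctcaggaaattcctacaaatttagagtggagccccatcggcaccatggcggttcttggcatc
Cyp2a5 (chr7:26835089-26835388, plus strand): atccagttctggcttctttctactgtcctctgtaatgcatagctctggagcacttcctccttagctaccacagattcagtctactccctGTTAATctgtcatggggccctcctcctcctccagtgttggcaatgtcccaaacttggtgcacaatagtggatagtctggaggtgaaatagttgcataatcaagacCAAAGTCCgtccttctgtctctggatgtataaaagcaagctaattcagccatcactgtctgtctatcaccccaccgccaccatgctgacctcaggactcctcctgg
The match in Slc1a2 began 207 bases before the RefSeq start used, that in Lect2 32 bases and that in Cyp2e1 135 bases before theirs. The Slc1a2 window lies inside the gene as placed by GENCODE M21 (chr2:102658659-102790784), so the start used there is an internal one. Cyp1a2 had a match at 244 bases, while the windows of Glul, Oat and Axin2 held none of the 4 sets of letters. In Cyp2a5 the HNF4A-type letters began 56 bases and the HNF1-type letters 161 bases before the start, and Lect2 also held the HNF1-type letters at 78 bases. Over all 32851 promoters, CTTTGAT was found in 3.73% and CTTTGAA in 5.14%. A match is a description of the letters and not a site of binding.

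Genes outside the rule were then compared between the members and the periportal quartile. A gene was compared when it had at least 200 UMIs over both quartiles, which 1257 genes did. By a threshold of 1.5-fold, 298 genes were higher in the members (23.7%) and 89 lower (7.08%). In barcodes with under 2% mitochondrial UMIs the same rule put none of these 1257 genes past 1.5-fold in either direction. Of all 7293 genes with enough UMIs there, 1 was higher (0.0137%) and 10 were lower (0.137%). The log2 ratios of the 1257 genes ran from -0.25 to 0.30 there, with a standard deviation of 0.043, against 0.66 in the barcodes described here. The quartiles there were far larger, 13761 and 13678 barcodes against 814 and 833, so counting error widened those ratios less. How much of the 0.66 was counting error was not tested. Zone shares under 2% lay close together, so the rule there set barcodes against each other that were already much alike. The ratios under 2% are therefore a description. They are not a measure of what would arise without zones in the barcodes described here.

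The median log2 ratio over all genes compared was 0.26 and not 0. Alb, Hpx, Mup20, Serpina1e, Serpina1b and Fgb, abundant secreted proteins picked after their values were seen, together made up 5.80% of non-mitochondrial UMIs in the members and 13.2% in the periportal quartile. Relative to the median of all genes, 143 genes were higher by 1.5-fold (11.4%) and 165 lower (13.1%). Of the genes past the threshold 77.0% were higher by CPM, 46.6% by TMM scaling and 39.1% by median-of-ratios scaling. TMM lowered each log2 ratio by 0.25 and median-of-ratios by 0.30, so a ratio between 0 and these values changes sign. The balance of higher and lower genes therefore depends on the scaling, whereas the leading genes below lie far outside that range.

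**Figure D2:**
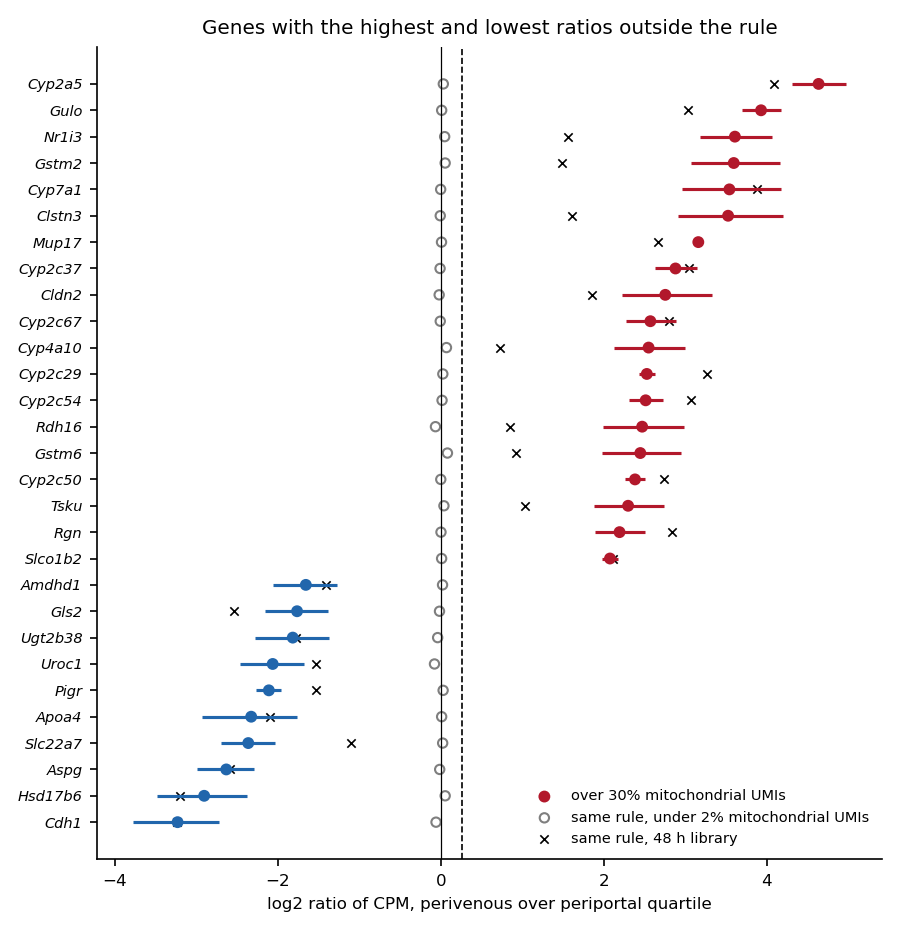
Log2 ratio of CPM in the members over the periportal quartile for 29 of the 30 genes with the highest or lowest ratio outside the rule (filled points, with 95% counting intervals), for the same rule in barcodes under 2% mitochondrial UMIs (open points) and in the 48 h library (crosses). The dashed line is the median of all genes, 0.26, and the open points of the 29 genes lie at the zero line.

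The highest gene was Cyp2a5 (ENSMUSG00000005547, chr7:26835305-26843548 of GRCm38, plus strand), a P450 known for oxidising nicotine and coumarin. It had 1457 CPM (1386 to 1531) in the members and 58.6 in the periportal quartile, a log2 ratio of 4.64 (4.31 to 4.98). Over the quartiles of zone share from periportal to perivenous, Cyp2a5 was at 58.6, 97.3, 312 and 1457 CPM. Most of this gain lay in the last step. Gulo (ENSMUSG00000034450, chr14:65986786-66009207, minus strand), the last enzyme of vitamin C synthesis in mice, was at 117, 179.8, 566 and 1786 CPM, a log2 ratio of 3.93. Nr1i3 (ENSMUSG00000005677, chr1:171213970-171220701, plus strand) encodes CAR, the nuclear receptor that turns on drug-metabolising genes. It stood at 34.7, 50.6, 173 and 424 CPM, a log2 ratio of 3.61. In all 3 genes the perivenous quartile stood well apart from the quartile next to it, with intervals that did not meet.

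Several of the leading genes belong to detoxification. Gstm2 and Gstm6, glutathione transferases, had log2 ratios of 3.59 and 2.45. Rdh16, a retinol dehydrogenase, was at 2.47. The P450 genes Cyp2c37, Cyp2c67, Cyp2c29, Cyp2c54 and Cyp2c50 ranged from 2.38 to 2.88, and Cyp4a10, a fatty acid hydroxylase, was at 2.55. Cyp2c29 was at 709, 1049, 2713 and 4088 CPM over the 4 quartiles. Members of the Cyp2c, Gstm and Mup families resemble each other closely in sequence, so reads may be split between copies and their single values are uncertain.

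Other leading genes act in transport and secretion. Slco1b2, an importer of bile acids and drugs, was at 3217 CPM in the members and 763 in the periportal quartile. Cldn2, a tight-junction protein that forms a pore for cations, had a log2 ratio of 2.75 and Clstn3 one of 3.53. Tsku, a secreted protein, was at 2.30, and Rgn, a calcium-binding lactonase of vitamin C synthesis, at 2.19. Both Gulo and Rgn, of the vitamin C pathway, were thus among the 20 highest genes. Mup17, a major urinary protein, was at 16363 CPM against 1831.

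The lowest gene was Cdh1 (ENSMUSG00000000303, chr8:106603351-106670246, plus strand), which encodes E-cadherin, a cell adhesion protein. It was at 293, 234, 108 and 31.2 CPM from the periportal to the perivenous quartile, a log2 ratio of -3.23 (-3.78 to -2.73). Cholangiocytes also carry E-cadherin, and their marker sum moved the same way (8 against 63 UMIs). The part of this in the Cdh1 value was not tested. The cholangiocyte keratins Krt19 and Krt7 were at 0 in both quartiles. Hsd17b6, an enzyme of steroid metabolism, was at -2.91, and Aspg, which hydrolyses asparagine, at -2.63. Uroc1 and Amdhd1, successive steps of histidine breakdown after Hal, were at -2.06 and -1.66. Gls2, the glutaminase that releases ammonia for urea, was at -1.77, the opposite direction to Glul. Slc22a7, an organic anion transporter, was at -2.36, Apoa4, a lipoprotein component, at -2.33, and Pigr, the receptor that carries immunoglobulin A into bile, at -2.11. Ugt2b38, a glucuronosyltransferase, was at -1.82.

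**Figure D3:**
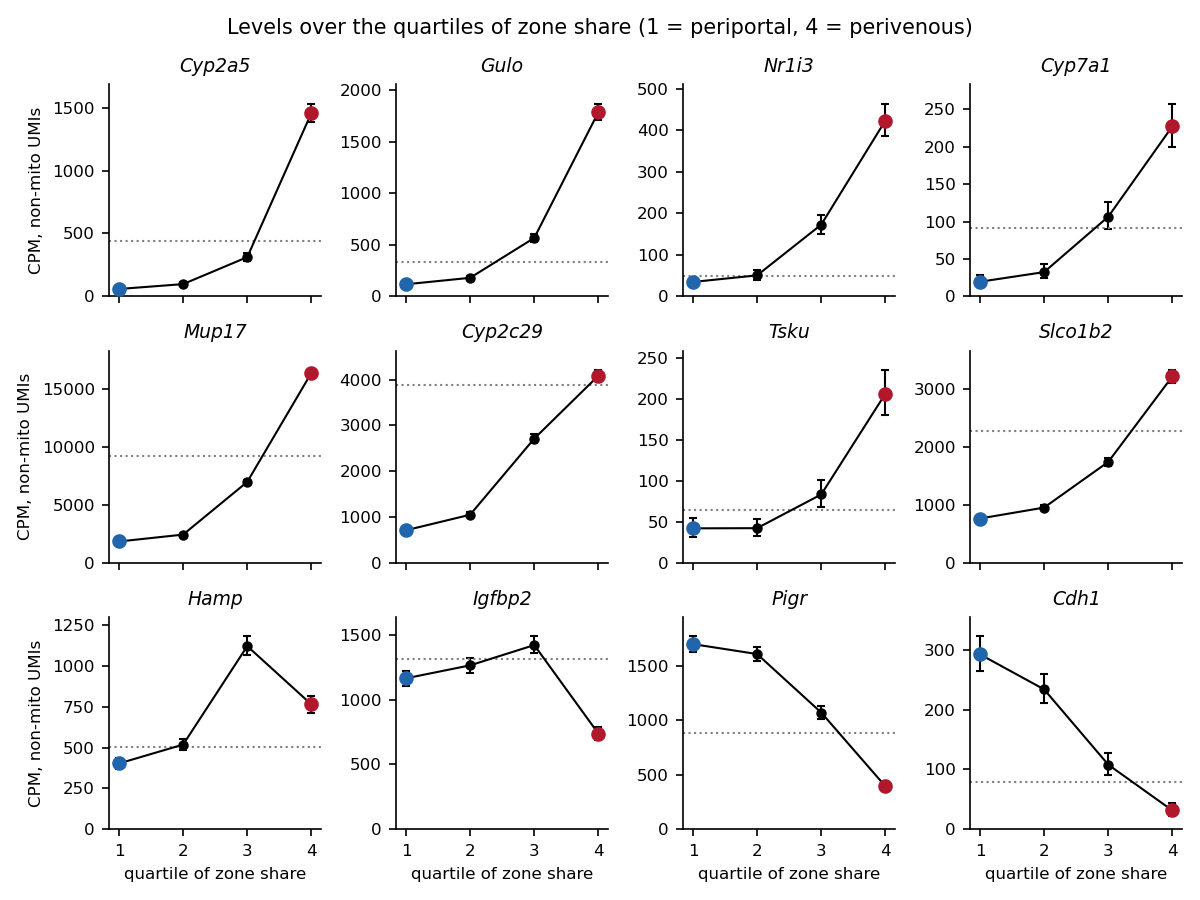
CPM over the 4 quartiles of zone share, from periportal (1, blue) to perivenous (4, red), for 12 named genes, with 95% counting intervals; the dotted line is the level in barcodes under 2% mitochondrial UMIs. Cyp2a5 goes from 58.6 to 1457 and Cdh1 from 293 to 31.2, while Hamp peaks in the third quartile at 1121.

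Wnt feedback and target genes were sparse in this library. Of 14 genes, only Ctnnb1 had enough UMIs to be compared, so the others are given as summed UMIs. Axin2, the classic feedback inhibitor, had 19 UMIs in the members and 1 in the periportal quartile. Lgr5, a receptor for R-spondins, had 27 and 4. Tbx3, a transcription factor downstream of β-catenin, had 33 and 0, at least 13.9-fold higher by CPM when 3 counts are put in place of 0 over the quartile, and its exact interval, which also covers counting error in the members, began at 10.7-fold. Sp5, another target, had 6 and 0, with an interval that began at 1.49-fold. Notum, a secreted enzyme that inactivates Wnt ligands, had 65 and 16 UMIs, a log2 ratio of 2.36 (1.56 to 3.25), and Rnf43, which removes Wnt receptors, had 39 and 11, a ratio of 2.17 (1.17 to 3.28).

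Other genes of the pathway had smaller ratios or too few UMIs for a direction. Ctnnb1, which encodes β-catenin, was at 78.9 and 84.6 CPM, a log2 ratio of -0.10 (-0.52 to 0.31). Lrp6, a Wnt co-receptor, had 46 and 69 UMIs, Apc, part of the complex that destroys β-catenin, 13 and 22, and Tcf7l2, its main DNA-binding partner in liver, 42 and 67. Their intervals included 0. Lrp5, the second co-receptor, had 65 and 47 UMIs, a log2 ratio of 0.81 (0.25 to 1.38). Znrf3, which acts like Rnf43, had 18 and 13 UMIs, Nkd1 3 and 1, and Tcf7 1 and 0, which do not allow a direction.

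Landmark genes of the perivenous zone that the rule did not use followed it. Of 20 such genes 14 could be compared, with a median log2 ratio of 1.43. By 1.5-fold 12 were higher and none lower, against 23.7% and 7.08% of all genes. All 12 stayed past the threshold relative to the median of all genes, against 11.4% of all genes. Beside Gulo, Cldn2 and Rgn, these included Aldh1a1, a retinal dehydrogenase, at 945 against 288 CPM, and Slc16a10, an aromatic amino acid transporter, at 179 against 50.6 CPM. Hpd, which breaks down tyrosine, was at 1938 and 889 CPM. Rnase4 and Ang lie at 1 locus and share a promoter region, so their ratios of 1.33 and 1.35 are not separate evidence. The carboxylesterases Ces1d and Ces3a were the exceptions, with ratios of 0.46 and 0.18.

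**Figure D4:**
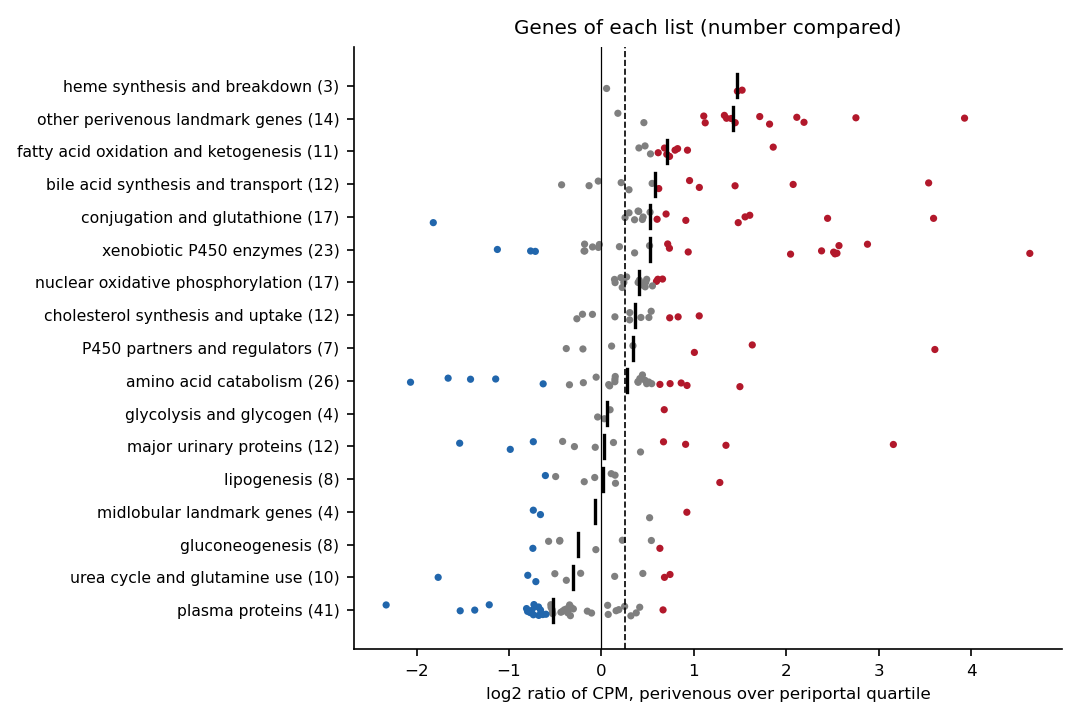
Log2 ratio of CPM in the members over the periportal quartile for the compared genes of 17 lists; each point is a gene, red at least 1.5-fold higher, blue at least 1.5-fold lower, and the black bar is the list median. The dashed line is the median of all genes, 0.26; the perivenous landmark genes centre at 1.43 and the plasma proteins at -0.53.

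P450 enzymes of the Cyp2, Cyp3 and Cyp4 families, not all of which mainly oxidise drugs, were divided within the list. Of 30 genes 23 could be compared, and the median was 0.52. Of these 11 were higher and 3 lower, against 23.7% and 7.08% of all genes. Relative to the median of all genes 9 were higher and 3 lower, against 11.4% and 13.1%. The Cyp2c genes near Cyp2c29 and Cyp2a5 stood at the top. Cyp3a11, the main mouse counterpart of the enzyme that oxidises most human drugs, was at 10369.7 CPM and 5406, a log2 ratio of 0.94. In contrast, Cyp3a25 was at 1063 and 1079 CPM and Cyp2j5 at 399.8 and 409 CPM. Cyp2u1, Cyp2a12 and Cyp4v3 were lower in the members, with ratios of -1.13, -0.77 and -0.71. Cyp2a5 and Cyp2a12, of the same subfamily, therefore had opposite directions. Of 7 compared partners and regulators, Nr1i3, Por and Cyb5b were higher, beside 23.7% of all genes. Por, the reductase that supplies electrons to all microsomal P450 enzymes, was at 337 and 109 CPM. Hnf4a, Rxra and Cebpa, transcription factors of hepatocytes in general, had ratios of 0.11, -0.20 and -0.38.

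A list of conjugation enzymes, which attach soluble groups to drugs, and of glutathione and other detoxification enzymes had 17 of 30 genes compared. Of these 8 were higher and 1 lower, against 23.7% and 7.08% of all genes, and the median was 0.53. The counts relative to the median of all genes were 6 and 1, against 11.4% and 13.1% of all genes. Gstm1 was at 1239.8 CPM and 407, and Gsta3 at 842 and 287. Ugt2b38 alone was lower, and the other glucuronosyltransferases ranged from 0.26 to 0.91 in log2 ratio. Heme is the cofactor of every P450. Only 3 of 10 heme genes could be compared. Of these Alad (210.0 against 73.1 CPM) and Cpox (213 against 76.7 CPM) were higher, beside 23.7% of all genes. Alas1, the rate-limiting enzyme, had a ratio of 0.06.

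Bile acid genes had 6 of 12 compared members higher and none lower, against 23.7% and 7.08% of all genes. Their median was 0.59. Cyp7a1, the rate-limiting enzyme of bile acid synthesis, was at 19.5, 32.4, 106 and 227 CPM over the 4 quartiles, a log2 ratio of 3.54 (2.97 to 4.17). Akr1c6 and Cyp27a1 followed at 1.45 and 0.95, as did Abcc2, an exporter of conjugates into bile, at 1.06. The bile salt exporter Abcb11 was at 402 and 541 CPM, a ratio of -0.43, and the importer Slc10a1 at 395 and 433 CPM, a ratio of -0.13. Slco1b2, the importer given above, had a ratio of 2.08, so transporters were found on both sides of 0. Cyp7b1, of the alternative route of synthesis, was at 0.21. Of the 12 genes 5 were higher and 1 lower relative to the median of all genes, against 11.4% and 13.1% of all genes.

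Genes of nitrogen metabolism lay on both sides of 0. Of 10 compared genes of the urea cycle and glutamine use, 2 were higher and 3 lower, with a median of -0.30. The 2 higher are near the 23.7% of all genes, and the 3 lower stand beside 7.08%. Relative to the median of all genes none was higher and 5 were lower, against 11.4% and 13.1% of all genes. Cps1, the entry enzyme of the urea cycle, was at 1641 and 1917 CPM, a log2 ratio of -0.22 (-0.31 to -0.14), far smaller than that of Gls2. Slc38a3 and Slc7a2, importers of glutamine and arginine, were at -0.71 and -0.80. Glud1, which interconverts glutamate with 2-oxoglutarate and ammonia, was at 0.74. Of 26 compared genes of amino acid catabolism, 5 were higher and 5 lower (median 0.27). Here too the share of higher genes is near the 23.7% of all genes, while 7.08% of all genes were lower. Those lower held the histidine route (Uroc1, Amdhd1 and Ftcd, the last at -1.42), Gldc of glycine cleavage at -1.14 and Got1 at -0.63. Those higher held Prodh and Aldh4a1 of proline breakdown, at 1.499 and 0.74, of which Aldh4a1 lost its call relative to the median of all genes. On that scale 3 of the 26 were higher and 6 lower, against 11.4% and 13.1% of all genes.

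Genes of fat burning had a median of 0.71. Of 11 compared members 8 were higher and none lower, against 23.7% and 7.08% of all genes. All 11 lay above the median of all genes, although 2 were past 1.5-fold relative to it, against 11.4% of all genes. Acaa1b, a peroxisomal thiolase, was at 1843 and 508 CPM. Cpt1a, the gate for entry into mitochondria, was at 133 and 86.8 CPM. Nuclear genes of oxidative phosphorylation had a median of 0.41, with 3 of 17 higher, near the 23.7% of all genes, and none lower. None was past 1.5-fold relative to the median of all genes, where 11.4% of all genes were higher and 13.1% lower. Atp5c1 had the largest ratio, 0.66, while Cox4i1 and Ndufa4 were at 0.21 and 0.24. Of 12 compared cholesterol genes 3 were higher, near the 23.7% of all genes. Relative to the median of all genes 1 was higher, beside 11.4% of all genes. That gene was Fdps, which builds farnesyl diphosphate, at 525 and 252 CPM.

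Of 8 compared gluconeogenic genes 1 was higher and 1 lower, against 23.7% and 7.08% of all genes, and the median was -0.25. Relative to the median of all genes none was higher and 4 were lower, against 11.4% and 13.1% of all genes. Slc37a4, the glucose 6-phosphate transporter, was lower at -0.74, and G6pc, which releases free glucose, was at -0.57. Pcx, which feeds pyruvate into the route, was at 0.63 and lost its call relative to that median. Of 4 compared glycolysis genes Tpi1 passed the threshold, at 0.68, near the 23.7% of all genes, and none did relative to the median of all genes. Gapdh was at 0.03. Among 8 compared genes of lipogenesis, Elovl3, which extends long fatty acids, stood apart at 1381 and 568 CPM, a ratio of 1.28. Fasn, the fatty acid synthase, was at 0.15, Scd1 at -0.19 and Srebf1, the regulator of the pathway, at -0.61. The medians of glycolysis and lipogenesis, 0.06 and 0.02, turn negative with either other scaling.

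Plasma proteins formed the largest group on the periportal side. All 41 could be compared, and the median was -0.53. Of these 16 were lower and 1 was higher, against 7.08% and 23.7% of all genes. Relative to the median of all genes 28 were lower and none higher, against 13.1% and 11.4% of all genes. Alb, which encodes albumin, took 2.15% of the non-mitochondrial UMIs in the members and 5.56% in the periportal quartile, a log2 ratio of -1.37. Hpx and Hp, which bind free heme and hemoglobin, were at -1.53 and -0.77, Trf, the iron carrier, at -0.72, and Fgb of fibrinogen at -0.80. Serpina1e, an inhibitor of proteases, was at -1.21, with the reservation that its copies are nearly identical. Apolipoproteins lay on both sides of 0. Apoe was at 47407 and 37983 CPM, a ratio of 0.32 (0.30 to 0.34), Apoa2 at 36218 and 34399.8 CPM, a ratio of 0.07 that turns negative with either other scaling, and Apoa1 at -0.34. Apoh, Apoc1 and Apoc4 were at 0.415, 0.25 and 0.19, and Apob, Apom, Apoc3 and Apoa5 at -0.15, -0.40, -0.42 and -0.53, beside Apoa4 above. Mbl1, a lectin that activates complement, was the one gene higher, at 0.67.

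Major urinary proteins, which carry pheromones, lay in both directions. Of 12 compared genes 4 were higher and 3 lower (median 0.03, negative with either other scaling), against 23.7% and 7.08% of all genes. Relative to the median of all genes 3 were higher and 4 lower, against 11.4% and 13.1%. Mup17 and Mup9 had ratios of 3.16 and 1.35, and Mup11 was at 18154 and 9651 CPM. Mup20, also called darcin, was at 16739 and 33144 CPM, a ratio of -0.99, Mup3 at -0.74 and Mup21 at -1.53. Family members with high levels thus lay at both ends of the axis.

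The promoter of Alb is shown because it holds the HNF1-type letters counted here.
Alb (chr5:90460620-90460919, plus strand): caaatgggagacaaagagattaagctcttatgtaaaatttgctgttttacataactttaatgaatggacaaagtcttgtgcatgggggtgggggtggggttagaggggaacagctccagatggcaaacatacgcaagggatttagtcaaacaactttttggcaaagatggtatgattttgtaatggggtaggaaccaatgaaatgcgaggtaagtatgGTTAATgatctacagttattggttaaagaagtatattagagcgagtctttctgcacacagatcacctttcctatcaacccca
The capitals mark GTTAAT, which began 32 bases before the start. A promoter was on file for 979 of the 1257 genes compared, and 90 of them held GTTAAT (9.19%), close to the 7.10% of all promoters. Among the genes lower in the members it was in 19 of 68 (27.9%), and among those higher in 14 of 235 (5.96%). Among the genes at least 4-fold higher it was in 3 of 15. The 19 were Alb, Fga, Fgb, C8a, C8b, Hc, Hgfac, Mug2, Pglyrp2, Ces3b, Errfi1, Ftcd, Srebf1, Tm4sf4 and Serpina1a to Serpina1e. Copies of Serpina1 share their sequence, so they are not separate cases. For CTTTGAT the shares were 4.25% (10 of 235) among the higher and 2.94% (2 of 68) among the lower genes, and for CTTTGAA they were 2.98% (7 of 235) and 2.94% (2 of 68), against 3.47% and 4.90% of the genes compared. Matches to the TCF/LEF letters were too few to rank these groups. No test was made of these shares, and the letters were chosen with the values known.

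Genes known from the middle of the lobule did not all follow 1 pattern over the quartiles. Hamp, the iron hormone hepcidin, was at 402, 518, 1121 and 764 CPM over the 4 quartiles, and Hamp2 at 10.9, 11.7, 46.3 and 44.0 CPM. Igfbp2, which binds insulin-like growth factors, was at 1164, 1264, 1421 and 737 CPM. Both Hamp and Igfbp2 were thus highest in the third quartile and lower in the members than there. The ratio of Hamp to the periportal quartile, 0.93, changed sign to -0.08 with at least 20 zonation UMIs per barcode. It was -0.20 with barcodes thinned to 500 UMIs. Cyp8b1, an enzyme that sets the type of bile acid, was at 386, 423, 478 and 555 CPM, a ratio of 0.52. Mup3, a major urinary protein, was at 30120, 30294, 26796 and 18082 CPM. Cyp8b1 and Mup3 thus had no peak in the third quartile.

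The share of members in which a gene was detected differed between genes. To compare barcodes at one depth, each was thinned to 500 non-mitochondrial UMIs, which left 802 members, as 12 were too shallow. Cyp2e1 was then detected in 97.6% of members (96.3 to 98.6%) and 27.7% of the periportal quartile, and Cyp1a2 in 65.3% and 8.66%. Glul was detected in 33.3% of members (30.03 to 36.67%) and 2.41% of the periportal quartile, and Slc1a2 in 22.1% and 0.120%. These are rule genes, so the choice of barcodes shaped their shares. Detection also depends on level, with mean UMIs per thinned member of 4.11 for Cyp2e1, 0.90 for Gulo, 0.70 for Glul and 0.31 for Slc1a2. The shares thus do not tell how alike the members were. Without thinning Glul was found in 48.6% of members and 7.80% of the periportal quartile. Of the genes outside the rule, Gulo was detected in 54.4% of members and 6.38% of the periportal quartile, and Cyp2a5 in 45.3% and 2.29%. In barcodes under 2% mitochondrial UMIs the thinned shares were 94.4% for Cyp2e1, 12.4% for Glul, 15.01% for Gulo and 20.04% for Cyp2a5. Detection of Cyp2e1 thus hardly set members apart from those barcodes, nor did that of Oat (34.0% of members and 34.3% of those barcodes). Glul, Gulo and Cyp2a5 were detected in a smaller share of those barcodes than of members.

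The spread of a gene over barcodes was measured by the Fano factor, the variance over the mean, which is 1 for pure counting. Over 615 genes its median was 1.02 in the members, and 6 genes reached 2. Mup17 led with 4.12, against 1.02 in barcodes under 2% mitochondrial UMIs. Glul followed with 2.41 against 1.04, Mup20 with 2.24 and Hamp with 2.23. Alb and Serpina1e, at 2.23 and 2.12, completed the 6. Mean UMIs per thinned member were 8.62 for Mup17, 7.91 for Mup20, 10.3 for Alb and 4.03 for Serpina1e. They were 0.70 for Glul and 0.43 for Hamp. The Fano factor can grow with level, and the part of level in this ranking was not tested. Cyp2e1 was at 1.31. Glul and Cyp2e1 are both genes of the rule, so the choice of barcodes shaped their spread, and nothing is read from the difference between them.

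**Figure D5:**
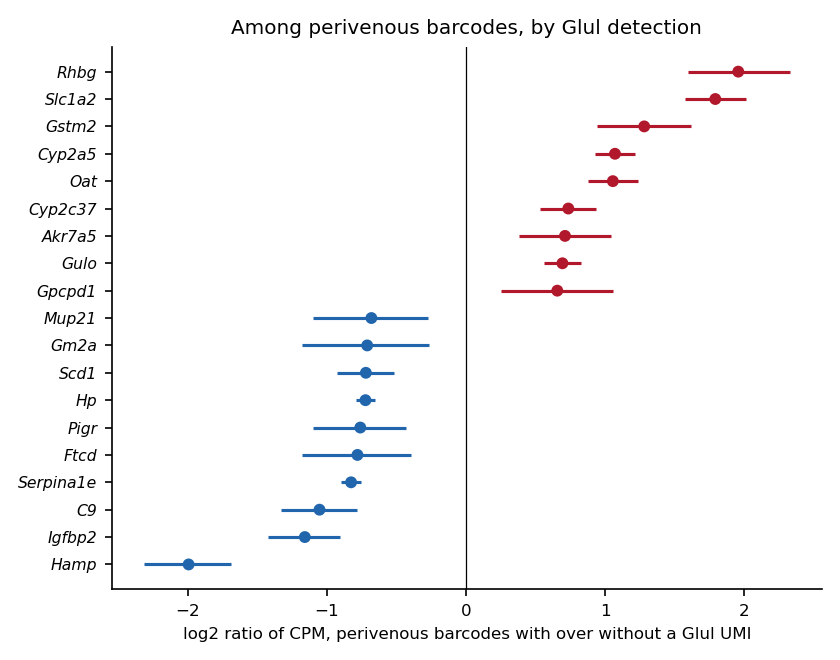
Log2 ratio of CPM in members with a Glul UMI over members without one after thinning, for 19 of the 20 genes with the highest or lowest ratio among 668, with 95% counting intervals. Rhbg and Slc1a2 lead at 1.96 and 1.79, and Hamp is lowest at -1.99.

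The members were also split by detection of Glul, a step chosen after the data were seen. After thinning 267 members had a Glul UMI and 535 had none. Their depth and mitochondrial share were similar, with medians of 1270.0 and 1222 non-mitochondrial UMIs and of 44.9% and 46.9%. Their median zone shares, 93.3% and 88.9%, differ in part by construction, since Glul enters the share. Of 668 genes 14 were higher by 1.5-fold with Glul (2.10%) and 15 lower (2.25%), around a median of 0.04. Those higher were led by the ammonia and glutamate importers, Rhbg at 1.96 (1.59 to 2.33) and Slc1a2 at 1.79 (1.57 to 2.01). Gstm2, Cyp2a5 and Oat were at 1.28, 1.07 and 1.05, and Gulo was at 0.69. Rhbg, Slc1a2 and Oat are themselves genes of the rule.

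P450 genes ranged from Cyp2a5 down to no gain with Glul. Cyp2c37 had a ratio of 0.73, Cyp1a2 0.54, Cyp2e1 0.26, Cyp3a11 0.16 and Cyp2c29 -0.10. Mup17 was at -0.18. The largest differences in the other direction were Hamp at -1.99 and Igfbp2 at -1.16, the same genes that peaked in the third quartile. Below them came C9, a complement component, at -1.05, Serpina1e at -0.83, Ftcd at -0.78, Pigr at -0.76 and Hp at -0.72. Barcodes with a Glul UMI thus had more of its substrate importers, which are genes of the rule, and less hepcidin, while most P450 genes named here were at like or higher levels in them. A sample of 500 UMIs does not allow the other barcodes to be called free of Glul.

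The same rule in the 48 h library gave 191 perivenous and 191 periportal barcodes of 763. Limits there were 48.1% and 11.5%, lower than at 0 h, so the quartiles are not the same zones at both times. At 48 h 152 of 1683 genes were higher by 1.5-fold (9.03%) and 97 lower (5.76%). Of 1068 genes compared in both libraries, 246 were higher at 0 h and 73 of those also at 48 h. For those lower the numbers were 73 and 47. Over all 1068 genes 100 were higher and 78 lower at 48 h. None went from higher at 0 h to lower at 48 h, while 2 went from lower to higher. Cyp2a5, Cyp7a1 and Cdh1 had log2 ratios of 4.08, 3.88 and -3.23 at 48 h beside 4.64, 3.54 and -3.23 at 0 h. Nr1i3, Gstm2 and Cyp4a10 had 1.56, 1.49 and 0.72 beside 3.61, 3.59 and 2.55. With 1 library at each time, the difference between the times was not tested.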

How the data were processed

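Hepatocyte scRNA-Seq libraries of undamaged liver and of liver 48 h after PHx were analysed, 1 per group, assigned by the time point in the labels. Per the submitters' processing notes, the authors used Cell Ranger (version not given in the sources used here) and mm10, and deposited whole UMI counts per gene and barcode without normalization, for 27998 genes. The libraries held 96118593 and 18198719 UMIs. The authors excluded cells with many mitochondrial transcripts and possible doublets at thresholds not given, and the deposited matrices were used here without those filters. Mitochondrial UMIs came from 13 genes.

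UMIs of each gene were summed over the barcodes of a quartile (Python 3.11.15, NumPy 2.4.6, SciPy 1.17.1) and scaled to non-mitochondrial UMIs. Levels have exact Poisson intervals and ratios exact conditional binomial intervals, and shares of barcodes have exact Clopper-Pearson intervals, all at 95%. UMIs of 1 library are not replicates, so no test was made. The comparison was checked on simulated counts. A fold against 0 used a floor of 3 counts over the quartile. TMM factors came from edgeR 4.0.16. Doublets were not removed, since Scrublet (Scanpy 1.11.5) called 1 of 3870 barcodes, which is too few for the caller to be relied on. Gene positions are from GENCODE M21 (GRCm38, the build named mm10), in which all 95 named genes had an entry. On the same strand Oat, Rhbg, Fdps and Cox4i1 overlap another coding gene, so their UMIs may be shared.

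The members, the gene lists and the rule for named genes were chosen with earlier results of these data known. That rule took the 15 zonation genes, the 20 highest and 10 lowest ratios, in each list the 2 members with the highest level and the one with the largest ratio, and every Wnt and midlobular gene. Further list members given as examples were picked after their values were seen. Some genes of the lists are counted but not reported singly here. Bulk RNA-Seq and chromatin data of the study were not analysed here.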

Additional observations from a re-analysis of the deposited data

Results flagged for a closer look

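Cyp7b1, an enzyme of the alternative route to bile acids, and Apoe, a lipoprotein component, differed in opposite directions between the quartiles at the 2 times. The log2 ratio of Cyp7b1 was 0.21 (0.12 to 0.30) at 0 h and -0.23 (-0.45 to -0.02) at 48 h. That of Apoe was 0.32 (0.30 to 0.34) at 0 h and -0.24 (-0.26 to -0.22) at 48 h. The difference between the times was not tested, as each time had 1 library. The median of all genes was 0.26 at 0 h and 0.14 at 48 h, and relative to the first of these Cyp7b1 was at -0.04 and Apoe at 0.06.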

How the results depend on the processing

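The main counts were 298 genes higher and 89 lower, and 19 alternatives were run. Within 1.5 times of both counts lay 20% for the mitochondrial limit, at least 10 zonation UMIs and wider groups than quartiles (1114 barcodes at the perivenous end). So did totals without the zonation genes, the mean of single-barcode CPM and the zone share without Cyp2e1. The zone share without Ass1 and Asl (added after seeing the data) and the removal of barcodes with other cell type markers did too. Doublet removal took out none of the members and left both counts as they were, so it is no check. Scaling moved the balance, to 144 higher and 165 lower by TMM and 125 and 195 by median-of-ratios. A limit of 50% gave 62 and 39, thinning to 500 UMIs 46 and 37, and a minimum of 1000 UMIs per gene 53 and 40, with fewer genes compared in each (311, 226 and 274). With no minimum the counts were 3939 and 2285 of 12177 genes. At least 20 zonation UMIs gave 170 higher, and narrower groups (328 barcodes) 106 higher, of 680 and 492 genes. A threshold of 0.32 in log2 gave 564 and 172, and one of 2-fold 92 and 33. The same rule in barcodes under 2% mitochondrial UMIs gave 1 and 10 of 7293 genes, with list medians of -0.0074 for heme and -0.0031 for bile acid genes.

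Of 1254 ratios of named genes over the alternatives, 1013 moved by less than their counting interval, 239 by more, and 2 of genes past 1.5-fold changed sign. The 1013 include those under other fold thresholds and other minimum UMIs per gene, settings that cannot move a ratio. They also include those after doublet removal, which took out none of the members. Both were Hamp, at -0.0799 with at least 20 zonation UMIs and -0.204 after thinning, and the cause was not tested. Of the 66 named genes compared, 48 were past 1.5-fold, and 44 to 48 were so in the same direction under the alternatives within the barcodes described. This range too includes the settings that cannot move a ratio. Depth limits the Wnt genes most. No paired analysis was possible because each group had 1 library and no test was made.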
